A study of Mus musculus with 18 samples.

Results

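Kupffer cells are the resident macrophages of the liver, and 10 genes that mark them were followed in mouse liver: Clec4f, Vsig4, Marco, Cd5l, Timd4, Adgre1, C1qa, C1qb, C1qc and Csf1r. All probe sets that carried these symbols alone were taken, which gave 15 probe sets of the 45037 on the array that are not controls, and the probe set that was brightest on average stood for its gene. All 10 genes were bright enough to be tested, among 14198 genes tested of 18193 with a symbol of their own. The livers were those of male mice of the inbred strain C57BL/6J at 62 weeks of age, and each array held the RNA of a different mouse. From the age of 5 weeks the mice were fed a high-fat diet (60% fat) with 30% calorie restriction (HF+CR), with a running wheel (HF+Ex) or without limit (HF), or a low-fat diet (10% fat) with 30% calorie restriction (LF+CR), with a running wheel (LF+Ex) or without limit (LF), with 3 mice in each of the 6 groups. The labels name no transgene or drug, and all mice were housed singly. Values are fluorescence intensities on a linear scale, and differences are log2 differences of the intensity plus 16.

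Kupffer cells sit inside the liver sinusoids, where they clear microbes, worn red cells and cell debris from portal blood. Those seeded before birth renew themselves in place, need signals through the CSF1 receptor, and take part of their identity from endothelial, stellate and hepatocyte neighbours. In fatty liver disease of mice, resident cells that carry TIMD4 can be lost and monocytes can fill the niche, and the incoming macrophages gain CLEC4F before they gain TIMD4. The measurements were made on whole liver, so that fewer Kupffer cells and less RNA per Kupffer cell cannot be told apart.

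Promoter sequences were read for the members because most of the markers moved together from mouse to mouse, as described below, while Timd4 and Marco did not always follow. RefSeq (build GRCm38.p6) gave a promoter for 7 of the 10 genes, and none for Adgre1, C1qa and Csf1r. The 250 bases listed there as upstream were searched on both strands for GAGGAA, the core that the macrophage factor PU.1 binds. They were also searched for TGAGTCA, the AP-1 element, and for TGCTGAC, a MAF half-site. For Timd4 and C1qc these bases run a little into the gene as annotated, which begins at chr11:46810786 and, on the minus strand, at chr4:136892936. No promoter of a member held more than 1 of these motifs. GAGGAA or its complement stood in 5 of the 7 promoters (Vsig4, Marco, Cd5l, C1qb and C1qc), against 23.3% of all 32851 promoters in the same table. It was absent from that of Clec4f, which went with the common pattern, and present in that of Marco, which did not always follow. Its presence thus did not divide the markers by their pattern. TGAGTCA stood in 0 of 7 (4.46% of all promoters) and TGCTGAC in 1 of 7, that of Timd4 (3.81%). Such matches describe letters and do not show that a factor binds. Shown are 3 markers of the common pattern (Vsig4, C1qb and C1qc) and the pair that departed from it (Marco and Timd4), with GAGGAA or its reverse complement TTCCTC in capitals; that of Timd4 holds neither.
Vsig4 (chrX:96293439-96293688, minus strand): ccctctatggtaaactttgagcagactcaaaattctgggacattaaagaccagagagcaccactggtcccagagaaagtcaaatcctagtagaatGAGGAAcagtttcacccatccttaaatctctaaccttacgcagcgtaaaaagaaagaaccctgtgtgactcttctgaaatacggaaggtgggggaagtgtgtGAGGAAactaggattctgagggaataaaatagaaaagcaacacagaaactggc
C1qb (chr4:136886201-136886450, minus strand): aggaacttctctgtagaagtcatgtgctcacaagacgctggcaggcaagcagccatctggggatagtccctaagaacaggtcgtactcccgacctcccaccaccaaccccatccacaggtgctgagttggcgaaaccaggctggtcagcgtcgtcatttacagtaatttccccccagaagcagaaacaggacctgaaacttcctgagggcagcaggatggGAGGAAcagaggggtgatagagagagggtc
C1qc (chr4:136892915-136893164, minus strand): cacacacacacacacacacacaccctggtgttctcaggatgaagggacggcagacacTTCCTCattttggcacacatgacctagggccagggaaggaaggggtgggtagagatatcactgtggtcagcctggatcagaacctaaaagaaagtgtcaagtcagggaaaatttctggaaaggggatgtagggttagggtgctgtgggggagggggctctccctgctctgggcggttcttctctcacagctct
Marco (chr1:120505025-120505274, minus strand): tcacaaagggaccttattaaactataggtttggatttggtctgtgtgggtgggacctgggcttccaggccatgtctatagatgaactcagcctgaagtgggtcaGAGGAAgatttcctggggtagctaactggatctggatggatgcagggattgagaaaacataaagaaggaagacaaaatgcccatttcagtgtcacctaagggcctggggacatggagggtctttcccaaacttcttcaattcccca
Timd4 (chr11:46810549-46810798, plus strand): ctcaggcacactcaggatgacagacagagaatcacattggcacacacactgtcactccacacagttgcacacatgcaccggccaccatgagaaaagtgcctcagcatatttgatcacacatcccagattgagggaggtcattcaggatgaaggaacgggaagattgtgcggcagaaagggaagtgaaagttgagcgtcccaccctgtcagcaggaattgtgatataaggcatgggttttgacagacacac

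The arrays were comparable in overall level, with medians from 104.87 to 118.35, and values below 88.2 to 97.6 (the 40th percentile of each array) are called dim here. The number of arrays limited the precision. The first principal component of all genes held 26.6% of the variance and placed LF+CR 2 (23.6), HF 1 (21.2) and HF+Ex 3 (19.2) farthest out, and each of these arrays also stood among the highest for most markers below. The 3′/5′ ratio of the Gapdh control probe sets, a measure of RNA integrity, ran from 1.02 to 1.23, with 1.04 on LF+CR 2, 1.02 on HF 1 and 1.03 on HF+Ex 3, toward its low end. That of the Actb control probe sets ran from 1.55 to 2.20, with 1.68, 1.55 and 1.56 on these arrays. It was 1.63, 2.10 and 1.95 on HF+CR 1, HF+CR 2 and HF+CR 3, where most markers were low, and 2.03 on LF 2, where most were high. Pancreatic acinar transcripts (7 of 8 listed genes tested) averaged 1.17 to 2.36 above their own mean, in log2 units, on HF+Ex 1, LF+CR 1, LF+Ex 3 and LF 1, and no more than 3 of the 10 markers exceeded their own mean on any of these arrays. Over all 18 arrays this count was 0 on 5, 1 on 2 and 3 on 5, so that low counts were not particular to these arrays. The part of these differences between arrays in the results below was not tested, beyond the fits without these arrays given there. Hepatocyte genes were abundant throughout, with the sum of 11 tested genes between 98685 and 110450.

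Among the surface lectins and receptors that define the Kupffer cell, Clec4f encodes a C-type lectin that in mice is found almost only on these cells. Clec4f read 771, 719 and 716 in HF+CR livers, 624, 753 and 936 in HF+Ex livers and 1063, 1084 and 761 in HF livers. In LF+CR livers it read 793, 1017 and 760, in LF+Ex livers 992, 747 and 786, and in LF livers 722, 1193 and 837. The highest value belonged to an LF mouse and the lowest to an HF+Ex mouse, and the HF+CR livers lay closest together (735 ± 31.2, against 969 ± 181 in HF; SD, n = 3 each). HF+CR 2 and HF+CR 3 lay below every value of the HF, LF+CR, LF+Ex and LF groups.

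Vsig4 encodes a receptor for complement fragments with which Kupffer cells catch bacteria from the blood. It read 649, 653 and 604 in HF+CR livers, 594, 715 and 1031 in HF+Ex livers, and 1254, 1061 and 775 in HF livers. On the low-fat diet it read 756, 1399 and 801 with restriction, 852, 668 and 747 with running, and 577, 1059 and 767 without either. All 3 HF+CR values lay below all 3 HF values, while the HF+Ex and LF groups each held a mouse below the lowest HF+CR liver and a mouse within the HF range. Adgre1, the gene of the macrophage surface protein F4/80, read 488, 358 and 344 in HF+CR livers, 347, 531 and 671 in HF+Ex livers and 874, 761 and 488 in HF livers. Its low-fat values were 378, 731 and 396 with restriction, 483, 356 and 399 with running, and 355, 597 and 457 without either. The lowest HF value (488.30) exceeded the highest HF+CR value (487.66) by less than 1 unit, so that these groups were only just apart.

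Cd5l encodes a secreted macrophage protein, also called AIM. It read 1979, 2014 and 1809 in HF+CR livers, 1711, 2204 and 3416 in HF+Ex livers, and 3886, 3585 and 2479 in HF livers. It read 2400, 4074 and 2429 in LF+CR livers, 2576, 1857 and 2477 in LF+Ex livers, and 1690, 3078 and 2347 in LF livers. The HF+CR values lay below every HF and every LF+CR value, and the highest value of all came from LF+CR 2.

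C1qa, C1qb and C1qc encode the chains of C1q, the protein that starts the classical complement pathway, and liver macrophages make much of it. The genes are neighbours, in the order C1qb, C1qc, C1qa, with no other gene annotated wholly between them. C1qb read 561, 464 and 515 in HF+CR livers, 614, 669 and 1303 in HF+Ex livers, and 1235, 1092 and 751 in HF livers. It read 628, 1358 and 669 in LF+CR livers, 660, 537 and 733 in LF+Ex livers, and 594, 972 and 687 in LF livers. The 5 highest values came from 4 groups (HF+Ex 3, HF 1, HF 2, LF+CR 2 and LF 2), and HF+CR 2 and HF+CR 3 were the lowest. C1qa averaged 700 ± 82.7 in HF+CR livers, 1017 ± 380 in HF+Ex livers, 1148 ± 268 in HF livers, 1062 ± 470 in LF+CR livers, 810 ± 69.7 in LF+Ex livers and 909 ± 176 in LF livers (SD, n = 3 each). C1qc averaged 560 ± 38.6, 799 ± 272 and 961 ± 232 in the HF+CR, HF+Ex and HF groups and 888 ± 385, 694 ± 62.8 and 756 ± 181 in the LF+CR, LF+Ex and LF groups. The chains kept a near-fixed proportion in every liver: the log2 difference between C1qa and C1qc varied with an SD of 0.06 over the 18 arrays, while each gene alone varied with an SD of 0.38 and 0.39. With C1qb the SD of the difference was 0.11 for either partner.

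Csf1r encodes the receptor for CSF1 and IL34 on which Kupffer cells depend. It read 1331, 1071 and 1033 in HF+CR livers, 1089, 1231 and 1596 in HF+Ex livers, and 1621, 1706 and 1272 in HF livers, and 1205, 1695 and 1213 in LF+CR livers, 1387, 1201 and 1211 in LF+Ex livers, and 1066, 1693 and 1177 in LF livers. It had the narrowest range of the 10 genes, with the highest array 1.65 times the lowest, and on this probe set its groups all overlapped. On its other probe sets every HF+CR value lay below every HF value. They read 410 to 489 in HF+CR livers against 519 to 765 in HF livers, and 289 to 322 against 344 to 469.

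Marco and Timd4 lay near the dim threshold on many arrays and behaved differently. Marco encodes a scavenger receptor that binds bacteria and particles, and Timd4 a receptor for phosphatidylserine, the signal that dying cells expose. Marco read 379, 116 and 129 in HF+CR livers, 118, 435 and 87.7 in HF+Ex livers and 118, 648 and 130 in HF livers. On the low-fat diet it read 161, 785 and 129 with restriction, 158, 103 and 228 with running, and 127, 180 and 333 without either. Most mice were near the dim level and 5 stood well above it, LF+CR 2 and HF 2 the most. The lowest value, that of HF+Ex 3, was below the dim threshold of its array. Timd4 read 120, 106 and 110 in HF+CR livers, 94.5, 145 and 74.4 in HF+Ex livers and 126, 187 and 86.7 in HF livers. It read 136, 173 and 130 in LF+CR livers, 147, 119 and 132 in LF+Ex livers, and 115, 197 and 136 in LF livers. Timd4 passed the dim threshold on 16 of 18 arrays, and HF+Ex 3 and HF 3 were the exceptions. On most arrays both genes lay close to background, where differences between arrays are compressed.

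**Figure D1:**
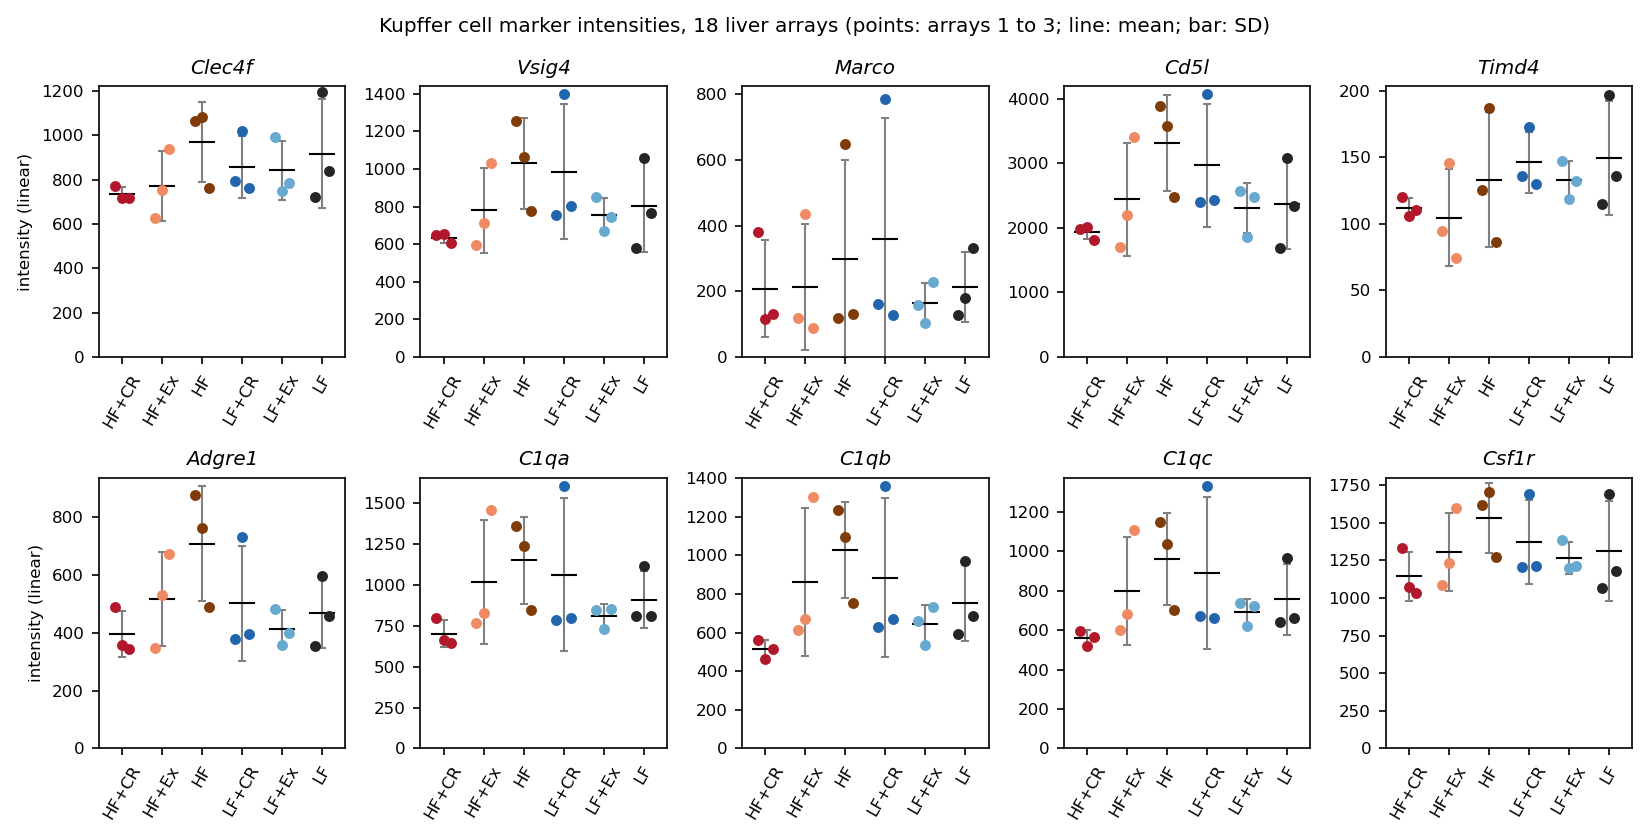
Intensity (linear scale, y axis from 0) of each marker in the 6 groups of 3 livers, with each array as a point, the group mean as a line and the SD as a bar that is clipped at 0 for Marco. In every panel except those of Marco and Timd4 the HF mean is the highest and the HF+CR mean the lowest, and the points of the other groups spread over most of the range.

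The group means followed a similar order for most markers. The mean was highest in HF for 8 of the 10 genes, in LF+CR for Marco and in LF for Timd4, and it was lowest in HF+CR for 8 genes, in LF+Ex for Marco and in HF+Ex for Timd4. Cd5l and the C1q genes shared 1 order, from HF through LF+CR, HF+Ex, LF and LF+Ex down to HF+CR. Neighbours in these orders were mostly not separated: of 50 neighbouring pairs of means, 5 differed by more than the larger SD of the pair, and all 5 were LF+Ex above HF+CR (Vsig4, Timd4, C1qa, C1qb and C1qc). In a moderated F-test over the 6 groups with limma, 0 of 10 markers passed an adjusted p of 0.05, where 14.3% of all genes passed. The smallest was that of C1qb (adjusted p = 0.216, unadjusted p = 0.0837), so that no marker had an unadjusted p under 0.05.

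Restricted mice on the high-fat diet had the lowest group mean for 8 of the 10 markers, but no marker passed in the main fit. Between HF+CR and HF livers all 10 log2 differences were negative, with a median of -0.67, beside a median of 0.04 over all genes tested. In limma 0 of 10 passed an adjusted p of 0.05, where 6.09% of all genes did. At an unadjusted p under 0.05, 7 of 10 were lower, against 9.83% of all genes, and for 6 of 10 every HF+CR value was below every HF value, against 13.4% of all genes. The 8 markers other than Marco and Timd4 moved together from mouse to mouse (r from 0.78 to 0.99). Counts of markers, here and below, are therefore not counts of independent observations. C1qb had the smallest p (log2 difference -0.95, SE 0.30, 95% interval -1.59 to -0.31, adjusted p = 0.0731). Adgre1 differed by -0.79 (SE 0.28), Cd5l by -0.75 (SE 0.27) and C1qc by -0.74 (SE 0.26), each with an adjusted p between 0.104 and 0.105 in limma. C1qa differed by -0.68, Vsig4 by -0.66, Csf1r by -0.41, Clec4f by -0.37, Marco by -0.26 and Timd4 by -0.16, with adjusted p up to 0.849. The other probe sets went the same way: those of C1qb differed by -0.76 and -0.79, those of Csf1r by -0.54 and -0.39, and that of Marco by -0.06.

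The call in this comparison depended on the settings. C1qb passed in limma with array weights (adjusted p = 0.0238), in the fit of the compared groups alone (0.0237, with C1qc at 0.0467 and Cd5l at 0.0375), without LF+CR 2, HF 1 and HF+Ex 3 together (0.0374), without HF+Ex 3 (0.0395) and without LF+CR 2 (0.0314, with C1qc at 0.0442). It did not pass in the other 27 alternatives, where the adjusted p reached 0.257. The signs of Marco and Timd4 rested on single mice: without HF 2 the differences were 0.49 for Marco and 0.09 for Timd4, and without HF+CR 2 that of Marco was 0.03. In the same comparison the sum of 11 hepatocyte genes was 106419 to 110450 in HF+CR livers and 98685 to 103405 in HF livers, while that of 11 sinusoidal endothelial genes was 5556 to 6037 in HF+CR livers and 6088 to 6364 in HF livers. Their part in the marker differences was not tested.

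**Figure D2:**
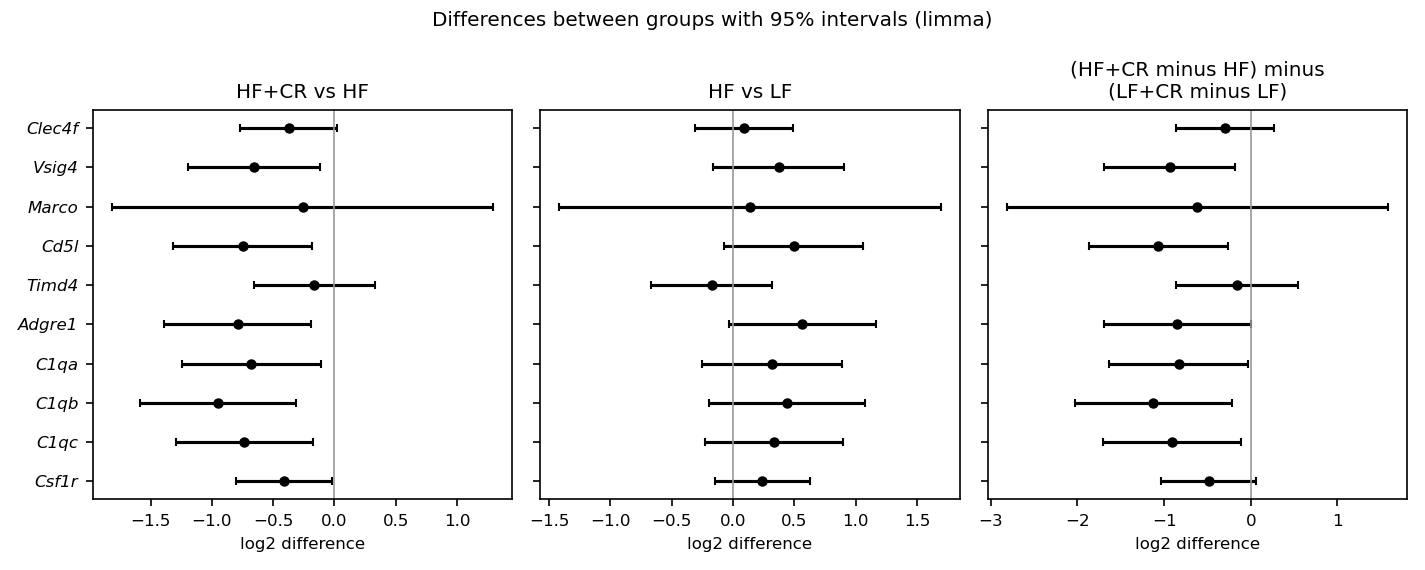
Log2 differences (x axis) of the 10 markers with their 95% intervals from limma for HF+CR against HF, HF against LF, and the difference between the restriction effects on both diets. All 10 points lie below 0 on the left and on the right, and the intervals of Clec4f, Marco and Timd4 include 0 in both, those of Adgre1 and Csf1r on the right as well, and every interval in the middle panel.

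On the low-fat diet most differences with restriction had the other sign. Between LF+CR and LF livers 8 of 10 differences were positive (median 0.16), and 0 of 10 passed in limma, where 5.57% of all genes did. Cd5l had the smallest p (0.32, SE 0.27, adjusted p = 0.611, unadjusted p = 0.251). The LF+CR mice did not share 1 level. Centred on each gene's own mean, the 8 markers other than Marco and Timd4 averaged 0.66 on LF+CR 2. They averaged -0.15 on LF+CR 1 and -0.13 on LF+CR 3, within the range of the LF livers (-0.33, 0.37 and -0.10). Positive differences thus leaned on LF+CR 2. The interaction, which subtracts the restriction effect on the low-fat diet from that on the high-fat diet, was negative for all 10 markers, with a median of -0.84, beside 0.05 over all genes. None of the 10 passed in limma, where 5.74% of all genes did, and 5 of 10 were lower at an unadjusted p under 0.05, against 9.37% of all genes. Cd5l had the smallest p (-1.07, SE 0.38, 95% interval -1.87 to -0.27, adjusted p = 0.106), and C1qb the largest difference (-1.12, SE 0.43, adjusted p = 0.127). LF+CR 2, which read highest of all for 6 markers, is 1 of the 3 LF+CR mice: without it the interaction of Cd5l was -0.82 (adjusted p = 0.243) and that of Marco turned to 0.16. The interaction shares the HF+CR and HF arrays with the comparison above.

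Between the restricted groups themselves, HF+CR against LF+CR, all 10 differences were again negative (median -0.50), and 0 of 10 passed in limma, where 8.94% of all genes did. At an unadjusted p under 0.05, 4 of 10 were lower (Vsig4, Cd5l, C1qb and C1qc), against 9.02% of all genes. C1qb had the smallest p (-0.68, SE 0.30, adjusted p = 0.179). Between HF+CR and HF+Ex livers 8 of 10 differences were negative (median -0.27), 0 of 10 passed where 2.72% of all genes did, and C1qb alone was lower at an unadjusted p under 0.05 (-0.65, SE 0.30, adjusted p = 0.217), against 7.23% of all genes. These comparisons share the HF+CR arrays.

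For dietary fat without an intervention, between HF and LF livers, 9 of 10 differences were positive (median 0.33, beside -0.03 over all genes), and Timd4 differed by -0.17. In limma 0 of 10 passed, where 0.902% of all genes did, and Adgre1 had the smallest p (0.57, SE 0.28, adjusted p = 0.332, unadjusted p = 0.0626). This comparison shares the HF arrays with that of HF+CR, so that a high HF group enters both. With running on both diets, HF+Ex against LF+Ex, 8 of 10 were positive with a median of 0.07, and 0 of 10 passed, where 1.72% of all genes did; Timd4 had the smallest p (-0.34, SE 0.23, adjusted p = 0.518 in limma, unadjusted p = 0.165).

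With a running wheel no marker passed either. Between HF+Ex and HF livers all 10 differences were negative (median -0.31), with the smallest p for Cd5l (-0.47, SE 0.27, adjusted p = 1.00 in limma, unadjusted p = 0.0969), and 0 of 10 passed, where 0% of all genes did. Between LF+Ex and LF livers all 10 were negative with a median of -0.11, the smallest p was that of C1qb (-0.20, SE 0.30, adjusted p = 1.00, unadjusted p = 0.516), and 0 of 10 passed, where 0.00704% of all genes did. The interaction of running with diet was negative for all 10 (median -0.20), its smallest p was that of Cd5l (-0.46, SE 0.38, adjusted p = 1.00, unadjusted p = 0.244), and 0 of 10 passed, where 0.00704% of all genes did. Between LF+CR and LF+Ex livers all 10 were positive (median 0.29), Vsig4 had the smallest p (0.33, SE 0.25, adjusted p = 0.482, unadjusted p = 0.216), and 0 of 10 passed, where 9.3% of all genes did. The 95% intervals bound these statements: for Cd5l the difference between HF+Ex and HF lay between -1.04 and 0.10, so that neither a marked fall nor a small rise was separated from no change.

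These intervals were wide because arrays of the same group differed. The SD within groups, on the log2 scale, had a median of 0.37 over the 10 markers, against 0.11 over all genes tested. It ran from 0.25 for Csf1r to 1.02 for Marco, and each marker exceeded between 94.2% and 99.9% of all genes. The share of variance that lay between the 6 groups had a median of 35.9% for the markers and 44.5% for all genes, where unrelated groups would give 29.4% from the degrees of freedom alone. Marco had the lowest share (6.80%) and C1qb the highest (44.0%).

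**Figure D3:**
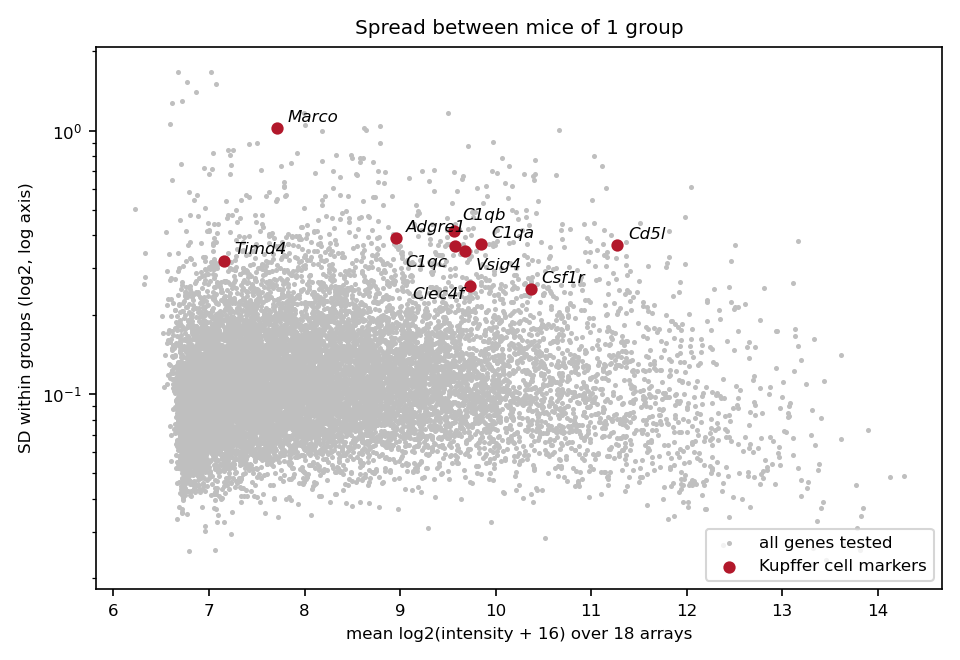
SD within groups (y axis, log2 units on a log scale) against mean level (x axis, log2 of the intensity plus 16) for all 14198 genes tested in grey and the 10 markers in red. All 10 lie toward the upper edge of the cloud, and Marco (1.02) lies near its top.

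Mice that were high for 1 marker were high for most. Among the 8 genes other than Marco and Timd4, a split made after their values were seen, all 28 pairs correlated over the 18 arrays, with Pearson r from 0.78 to 0.99, and from 0.84 to 0.99 after the group means had been subtracted. Correlations here are descriptions across 18 arrays that share RNA quality and cell makeup between genes. Centred on each gene's own mean, the mean of the 8 was highest on LF+CR 2 (0.66), followed by HF 1 (0.59), HF 2 (0.47), HF+Ex 3 (0.47) and LF 2 (0.37), and lowest on HF+CR 3 (-0.41), HF+CR 2 (-0.39) and HF+Ex 1 (-0.36). The highest liver thus carried 2.09 times the level of the lowest. LF+CR 2, HF 1, HF 2 and LF 2 stood among the 5 highest arrays for each of the 8 genes, and HF+Ex 3 for 7 of them. All 10 markers exceeded their own mean on LF+CR 2 and HF 2, and none did on HF+CR 2, HF+CR 3, HF+Ex 1, LF+Ex 2 and LF 1. High livers thus occurred in 4 of the 6 groups, and in the HF+CR and LF+Ex groups there was none.

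**Figure D4:**
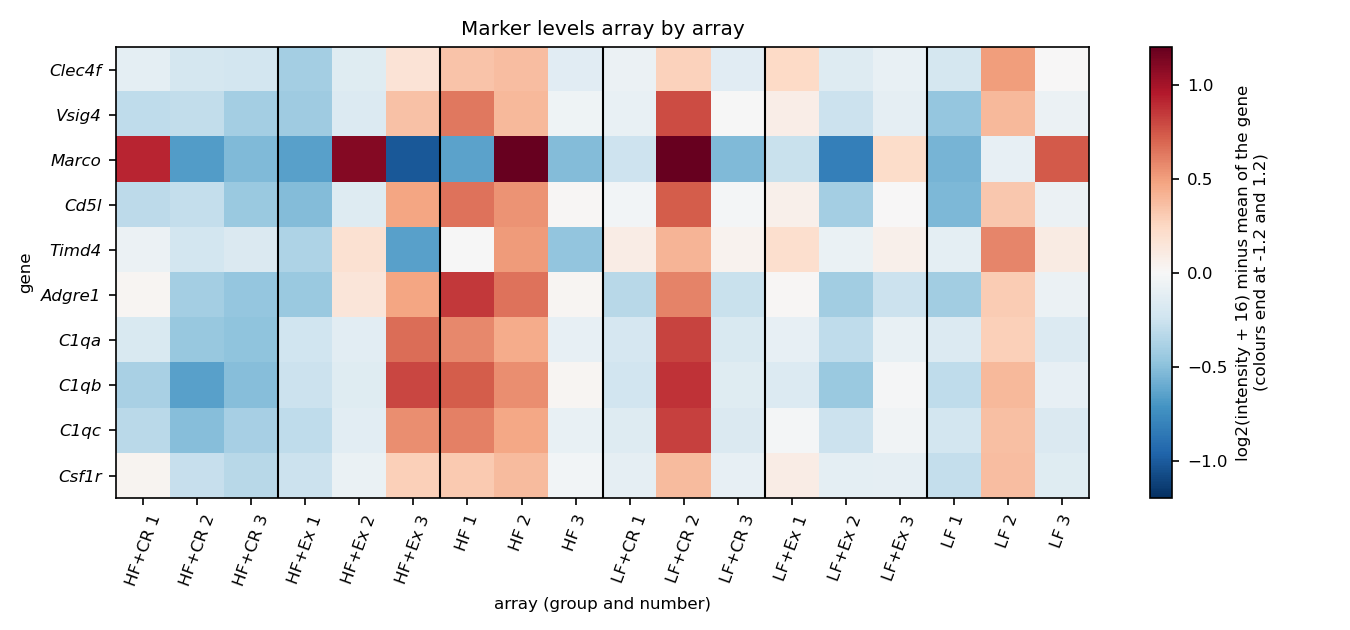
Level of each marker on each of the 18 arrays as log2 of the intensity plus 16 minus the gene's mean (colour scale, red above and blue below, ending at -1.2 and 1.2), with lines between the groups. LF+CR 2, HF 1, HF 2, HF+Ex 3 and LF 2 are red over most rows, while Marco and Timd4 are blue on HF+Ex 3.

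Timd4 and Marco kept apart from the other 8 markers on some of these livers. Timd4 correlated with the 8 at r from 0.25 to 0.61, Marco at 0.32 to 0.45, and the pair with each other at 0.67. On HF+Ex 3 the 8 markers averaged 0.47 above their own means, while Timd4 (74.4) and Marco (87.7) were the lowest of all 18 arrays and not above the dim threshold. On HF 1 the 8 averaged 0.59, Timd4 stood at its mean (-0.01) and Marco at -0.65. On LF+CR 2 and HF 2 all went up together, Timd4 by 0.41 and 0.51 and Marco by 1.93 and 1.66. Where Timd4 was above the dim threshold, it fell short of the 8 most on HF 1 (-0.59), then on LF+CR 2 (-0.25), and elsewhere it lay between -0.01 and 0.28 of them. On HF+Ex 3 and HF 3 it was below the threshold, so that its distance from the 8 there has no exact size. HF+Ex 3, HF 1 and HF 3 are mice on the high-fat diet without restriction, but these mice were picked out by their values and no test applies.

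**Figure D5:**
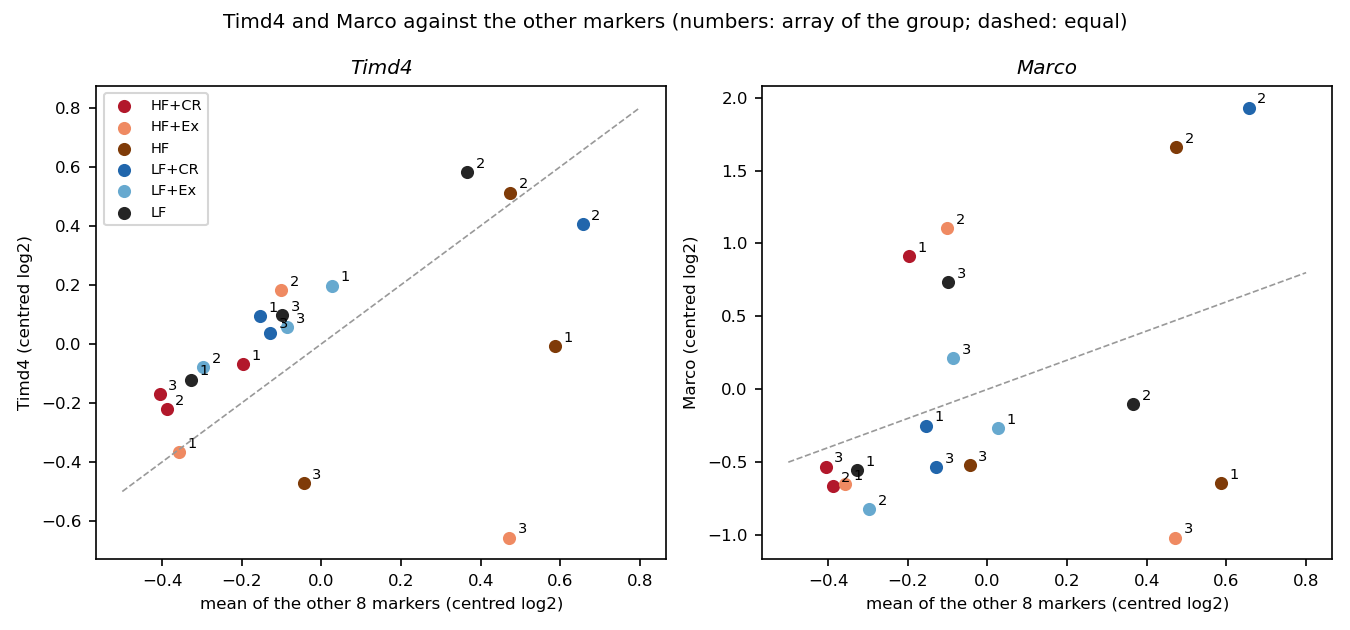
Centred log2 level of Timd4 (left) and Marco (right) against the mean of the other 8 markers on the 18 arrays, coloured by group and numbered by array, with a dashed line of equality. Timd4 runs along the line except on HF+Ex 3, HF 1 and HF 3, which lie well below it (on HF+Ex 3 and HF 3 the gene was not above the dim threshold), and Marco scatters widely on both sides.

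Genes from other lists, picked here after their values were seen, showed where these livers differed. Cd163, which encodes the haemoglobin scavenger receptor of resident macrophages, read 96.8 on HF+Ex 3 and 71.9 on HF 1, below the dim threshold on HF 1, and 192 on HF 3, against 222 to 572 on all other arrays. Of all genes tested, Fcna, which encodes a ficolin that opens the lectin pathway of complement, was most like Timd4 (r = 0.81) and also had its lowest values on HF+Ex 3 (433) and HF 3 (437), with 561 on HF 1 and up to 976 on LF 2. Lipid-associated macrophage genes (8 of 10 listed genes tested) were high on HF+Ex 3 and HF 1, with a mean of 0.85 and 0.80 above their own means, and also on LF+CR 2 (0.94), where Timd4 and Cd163 (388) were not low. Of these, Mmp12, a macrophage elastase, read 326 on HF+Ex 3, 365 on HF 1, 260 on LF+CR 2 and 192 on HF 3, against 50.5 to 115 elsewhere. Apart from HF 2 (115), all the other arrays were below the dim threshold for Mmp12, so that its contrast has no exact size. It passed the filter on dim genes only through these arrays and HF 2. Clec7a, the beta-glucan receptor, read 928, 827, 739 and 543 on the same arrays, against 165 to 462 elsewhere. Trem2, the receptor for which such cells are best known, did not share this pattern and read 167, 163, 171 and 192 there. In the comparison of HF+CR with HF livers 0 of these 8 genes passed in limma (median -0.89), and the summed level was 1569 to 1622 in HF+CR livers and 2483 to 4103 in HF livers. Recruited monocyte genes (6 of 11 tested) summed to 1027 to 1244 in HF+CR livers and 1256 to 1355 in HF livers, with 0 of 6 passed. The list as a whole did not share this gap, with a median log2 difference of -0.002. Centred on their own means, its genes averaged 0.08, 0.13 and -0.15 in HF+CR livers and 0.12, 0.08 and 0.05 in HF livers. The part of such cells in the marker levels was not tested.

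Most other genes of Kupffer cells and macrophages in general went with the members from array to array, but not all. Of 25 listed genes 24 were tested, and their correlation with the mean of the 10 markers over the 18 arrays had a median of 0.79 and ran from -0.33 to 0.90, beside a median of -0.06 for all genes tested. The 10 genes outside the members most like that mean were Col20a1 (r = 0.94), Ctla2b, Wfdc17, Sdc3, Clec4n, Slc15a3, Aif1, Tyrobp, Fcer1g and Igsf6 (r = 0.89). Col20a1 encodes a collagen chain and read from 105 to 142, close to background. Tyrobp and Fcer1g encode signalling adaptors of myeloid receptors and read 350 to 761 and 238 to 490. For 5 of the 10 members the most similar gene was another member (Vsig4 and Cd5l at 0.98, C1qa, C1qb and C1qc among themselves at 0.98 to 0.99). For the other 5 it was not: Sdc3, a heparan sulphate proteoglycan gene, was nearest to both Clec4f and Csf1r (r = 0.94), Igsf6 to Adgre1 (0.95), Fcna to Timd4 (0.81) and Pigt to Marco (0.72).

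Between HF+CR and HF livers 2 of these 24 fell and 0 rose (median -0.39). Of all 14198 genes 6.09% passed in either direction, and 362 genes passed as lower. The difference of the list from these shares was not tested. Slc40a1, the iron exporter ferroportin, read 2091 ± 84.2 in HF+CR livers and 2630 ± 142 in HF livers (SD, n = 3 each; log2 difference -0.33, SE 0.08, limma adjusted p = 0.0306). Fcgr1, the high-affinity receptor for IgG, read 132 ± 1.19 in HF+CR livers and 188 ± 7.49 in HF livers (-0.47, SE 0.13, adjusted p = 0.0481), and passed in 13 of 32 alternatives. Slc40a1 passed in 27 of 32, and did not pass without HF+CR 1, HF+CR 2, HF 1 or HF 2, or without LF+CR 2, HF 1 and HF+Ex 3 together. Of 13 scavenger and efferocytosis receptors and their bridging proteins 2 passed, both lower, beside the same 6.09% of all genes in either direction. Cd36, a fatty acid translocase that hepatocytes also express, fell by 1.71 (SE 0.18, adjusted p = 1.41e-04), and Mertk, which takes up dying cells, fell by 0.48 (SE 0.12, adjusted p = 0.0349). Mertk read 249, 289 and 247 in HF+CR livers against 374, 420 and 322 in HF livers, groups that did not overlap, and passed in 23 of 32 alternatives.

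Il34, which encodes a ligand of the CSF1 receptor, went the other way. It read 282, 259 and 220 in HF+CR livers, against 162, 205 and 176 in HF livers. Every HF+CR value lay above every HF value, and the log2 difference was 0.45 (SE 0.12, limma adjusted p = 0.0349). The interaction of restriction with diet was 0.61 (SE 0.17, adjusted p = 0.0419), since Il34 read 188, 163 and 204 in LF+CR livers and 229, 196 and 200 in LF livers. Il34 passed in 25 of 32 alternatives against HF and in 17 of 32 as an interaction, and against HF it did not pass without HF+CR 1 (adjusted p = 0.136), HF+CR 2 (0.111), HF 1 (0.163) or HF 3 (0.0949). Csf1, the gene of the other ligand, read 392, 336 and 322 in HF+CR livers and 262, 320 and 346 in HF livers, which overlap (0.17, SE 0.12, adjusted p = 0.355). Among the 10 niche genes Il34 was the only one to pass in this comparison. Of the cells of that niche, 2 of 11 sinusoidal endothelial genes and 1 of 11 stellate cell genes passed, all lower. The same 6.09% of all genes passed in either direction. Lyve1 fell by 1.10 (SE 0.22, adjusted p = 0.00990), Fcgr2b fell by 0.31 (SE 0.08, adjusted p = 0.0266), and Rgs5, the stellate cell gene, fell by 0.63 (SE 0.17, adjusted p = 0.0449). Lyve1 passed in all 32 alternatives, Fcgr2b in 23 and Rgs5 in 18.

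Complement genes that act with C1q were set beside it. Of 11 listed, 6 were tested, and 0 passed between HF+CR and HF livers (median 0.03). C1ra, the protease that C1q activates, which hepatocytes make, rose in the interaction of restriction with diet by 0.47 (SE 0.10, limma adjusted p = 0.0160, passed in 31 of 32 alternatives), where C1qb differed by -1.12 without passing. Serping1, which encodes the inhibitor of that protease, fell between LF+CR and LF livers by 0.33 (SE 0.09, adjusted p = 0.0461), with 4564 ± 633 in LF+CR livers and 5702 ± 245 in LF livers (SD, n = 3 each). This call passed in only 10 of 32 alternatives, with adjusted p up to 0.238. Each was 1 of the 6 genes, where 5.74% of all genes passed in the interaction and 5.57% between LF+CR and LF livers.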

How the data were processed

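Per the labels, total RNA of 18 livers was extracted with Trizol, turned into biotinylated cRNA and hybridised to Affymetrix Mouse Genome 430 2.0 arrays. The deposited file holds 1 intensity for each probe set and array, not log-transformed. How the authors summarised and normalized them is not given in the sources used here; array means lay between 305 and 308, and the values were used as deposited. Of 45101 probe sets 64 controls were left out, 34945 had a single symbol, and the 932 with several and the 9160 without a symbol were not named. Genes above the 40th percentile of the array on at least 3 arrays were tested. Values were log2 of the intensity plus 16, and limma 3.58.1 in R 4.3.3 fitted 1 mean per group to all 18 arrays (12 residual and 3.61 prior degrees of freedom), giving 9 comparisons of a pair of groups, 2 interactions and an F-test, with Benjamini-Hochberg adjustment over all 14198 genes at 0.05. SE is the moderated standard error. The pipeline was tested on simulated data. The members, the 16 other gene lists and the alternatives were chosen with earlier results of these data known. All members are named, and other genes were named if they passed in a list (up to 4 per list and comparison) or were most like the members. Outside this rule, Cd163, Mmp12, Clec7a and Trem2 were named after their values were seen, and Csf1 and Hba-a1 beside a gene that passed. Replicate numbers of different groups are not pairs: deviations of same-numbered arrays correlated between -0.41 and 0.34, and 10 of 45 such pairs exceeded 0.1. Alternatives were quantile normalization, centring on the median, offsets of 1 and 64, other filters on dim genes, all or averaged probe sets, a trended robust variance, array weights, only the groups compared, a replicate block, and fits without 3 arrays, without 4 arrays and without each array.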

Additional observations from a re-analysis of the deposited data

Results flagged for a closer look

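Cd5l stood out because restriction went with opposite signs on the diets: every HF+CR value (1979, 2014 and 1809) lay below the HF mean of 3317, and every LF+CR value (2400, 4074 and 2429) lay above the LF mean of 2372. The interaction was -1.07 on the log2 scale (SE 0.38). The test of this difference did not pass in limma (adjusted p = 0.106), and over 32 alternatives the adjusted p ran from 0.0714 to 0.312. LF+CR 1 and LF+CR 3 exceeded the LF mean by less than the SD of 694 between LF livers. Opposite signs were not particular to Cd5l. All 10 markers differed negatively between HF+CR and HF livers, and 8 of 10 positively between LF+CR and LF livers. The interaction of C1qb was larger in size (-1.12, SE 0.43, limma adjusted p = 0.127).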

How the results depend on the processing

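Of 383 alternative counts of markers that passed, 378 equalled the main count of 0. The 5 that moved all concerned HF+CR against HF: 1 marker passed with array weights (C1qb), 3 in the fit of the compared groups alone (C1qb, C1qc and Cd5l), 1 without LF+CR 2, HF 1 and HF+Ex 3 together (C1qb), and 0 to 2 when single arrays were left out. The fit of the compared groups uses fewer samples. In that fit, without HF+Ex 3 and without LF+CR 2, the difference of C1qb was -0.95 as in the main fit. There the estimate of its spread and the adjustment over genes differed. With array weights the difference was -0.83, and without LF+CR 2, HF 1 and HF+Ex 3 together -0.80. The cause was otherwise not tested. Signs reversed in 8 of 928 alternatives for single markers, none with a passing test. The restriction by diet interaction of Marco was 0.0305 with array weights, 0.13 without HF 2 and 0.16 without LF+CR 2 (range without single arrays -1.12 to 0.16), and that of Timd4 was 0.0926 without HF 2 (-0.40 to 0.0926). Between HF+CR and HF, Marco was 0.03 without HF+CR 2 and 0.49 without HF 2 (-0.76 to 0.49), and Timd4 0.0858 without HF 2 (-0.41 to 0.0858). The running by diet interaction of Cd5l was 0.0496 without the 4 arrays with pancreatic transcripts. For genes of the other lists no sign reversed in 1562 alternatives, but 333 no longer passed. With the replicate number as a block 0 of 10 markers passed in any comparison (C1qb between HF+CR and HF: limma adjusted p = 0.0990), so that the block changed no call of a marker. Marco and Timd4 lie near background on most arrays, which limits what their differences can show.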

Other observations

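Of the other lists, those of B and plasma cells (6 genes tested), T and NK cells (9), neutrophils (6), dendritic cells (4), recruited monocytes (6), cholangiocytes (3) and pancreatic acinar cells (7) had no gene that passed in limma in any of the 9 comparisons or 2 interactions. Of all genes 0% to 9.3% passed in these tests, shares at which such short lists may hold no call. The lists of hepatocytes and erythroid cells did hold calls. Among 11 hepatocyte genes, Tat, which degrades tyrosine, rose by 0.82 (SE 0.12, adjusted p = 0.00148) and Cps1, the first enzyme of the urea cycle, by 0.34 (SE 0.08, adjusted p = 0.0165) between HF+CR and HF livers, where 6.09% of all genes passed. They also rose by 0.77 and 0.34 between LF+CR and LF livers, where 5.57% of all genes passed. Alas2, the haem synthesis enzyme of erythroid cells, averaged 1189 ± 86.7 in HF+CR livers and 842 ± 55.6 in HF livers, and 408 ± 42.6 in LF+CR livers and 891 ± 93.4 in LF livers (SD, n = 3 each). Its interaction of restriction with diet was 1.59 (SE 0.14, limma adjusted p = 9.39e-06). Of 5 listed erythroid genes 2 were tested, with a median interaction of 0.79. Hba-a1, the other gene tested, did not pass in any comparison, so that Alas2 does not stand for the list.

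Between the restricted groups, HF+CR against LF+CR, Cd9, which encodes a membrane protein of lipid-associated macrophages among other cells, fell by 1.06 (SE 0.20, limma adjusted p = 0.00421). Acvrl1, a receptor for the endothelial signals BMP9 and BMP10, read 73.8 ± 4.25 in HF+CR livers, below the dim threshold, and 94.7 ± 0.942 in LF+CR livers, close to it (SD, n = 3 each). It passed in limma (adjusted p = 0.00354), but its difference has no exact size. Acvrl1 met the filter on dim genes in only 26 of 32 alternatives. It may thus have been tested only because it was brighter in the LF+CR livers, and no conclusion is drawn from this call. Lrp1, a receptor that clears remnant lipoproteins and debris, rose by 0.41 (SE 0.10, adjusted p = 0.0165), and Reln, a stellate cell gene, by 0.46 (SE 0.11, adjusted p = 0.0190). Between LF+CR and LF+Ex livers C4bp, an inhibitor of complement, fell by 0.32 (SE 0.10, adjusted p = 0.0468), a call that passed in only 14 of 32 alternatives, with adjusted p up to 0.423.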
